A study of Sorghum bicolor with 14 samples.

Results

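The most and the least severe of 3 drought levels were compared in the middle stem internode of sorghum (Sorghum bicolor), a C4 cereal, in the grain variety M35-1. The severe group, D3, was harvested at a soil moisture reading of about 2% and the mild group, D1, at about 13%. Both groups were grown 1 plant to a pot, stopped receiving water at the flag leaf stage and were harvested at booting, shortly before the panicle emerges. The labels do not say how many plants a library holds. D2, at about 7%, came from the same experiment. No watered pot group was analysed here, so the comparison is between degrees of drying and not between dry and watered plants. The series holds 14 libraries of total RNA, of which 4 belong to D1 and D3. The 4 field-grown groups of the series, taken at floral initiation, at booting and at the grain filling stages called milky stage and soft dough, serve below only as a second readout.

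The members were the loci of the drought table with at least 1 FPKM (fragments counted per kilobase of transcript, scaled to sequencing depth) in the higher of the D1 and D3 columns. They number 17045 of 32726 loci. The remaining 15681 loci were below that level in both columns, and 7577 of them were listed at 0 in both. At the edge of the filter, 211 loci had 1 to 1.1 FPKM in the higher column and 238 had 0.9 to 1. The 2 libraries of a group share 1 deposited column. A difference between D3 and D1 therefore had no replicate check, and no error, test or p-value can be given for it. A locus was called higher or lower at D3 when its log2(FPKM + 1) differed by 1 or more, a scale that understates the change of low loci.

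The internode of a grass elongates by cell division and expansion just above the node, and its older tissue lays down thick walls and stores sugar. When soil dries, the hormone abscisic acid rises, growth slows before photosynthesis does, and plants accumulate osmolytes and protective proteins such as dehydrins. Sorghum is known for tolerating drought late in its life. Which of the measured loci encode such proteins could not be read here, because the files pair their locus IDs with no gene names and 0 of 34129 IDs were found in the reference table of sorghum genes. For the same reason the internode label could not be checked against marker genes. The IDs named below are the 2 largest rises and the 2 largest falls among single-ID loci that reached 5 FPKM in D1 or D3, and other loci are given by position.

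More loci were lower than higher under severe drought. Of the 17045 measured loci, 1380 were lower at D3 than at D1 (8.1%) and 596 were higher (3.5%). The median difference over all measured loci was 0.01 on the log2 scale, but it differed between classes of range length, as given below. Falls of 2 log2 units or more numbered 301, and rises of that size 94. At 3 log2 units the counts were 65 and 19. Near the limit of calling, 104 loci had a fall of 1 to 1.05 log2 units and 111 a fall of 0.95 to 1, while 66 and 72 loci had rises of these sizes.

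**Figure D1:**
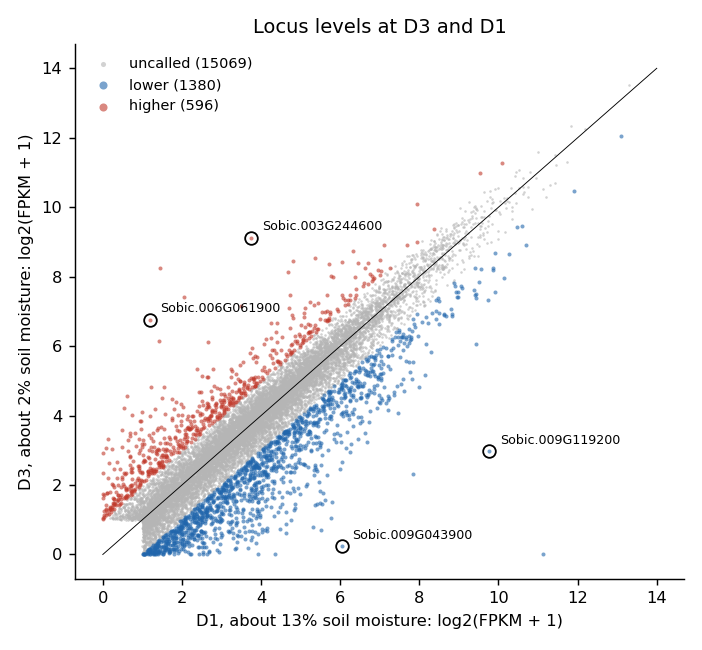
Level of each of the 17045 measured loci at D3 (vertical axis) and at D1 (horizontal axis), both as log2(FPKM + 1). Each point is 1 locus and 1 pooled value per group, the line marks equal levels, and circles mark the 4 named loci. The 1380 lower loci reach to high D1 levels, and 1 point on the horizontal axis near 11 is a locus listed at 0 at D3.

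Falls outnumbered rises in each of 4 classes of abundance. Among loci whose higher column was 1 to 5 FPKM, 349 were lower and 137 higher. Among those at 100 FPKM or more, 166 of 1564 were lower (10.6%) and 74 were higher (4.73%). From D1 through D2 to D3 the lower loci together held 86113, 62598 and 27519 FPKM, which is 12.2% of all FPKM at D1 and 3.97% at D3. The higher loci held 10716, 10780 and 31585 FPKM, or 1.52% of the sum at D1 and 4.56% at D3. The 10 loci with the largest loss accounted for 26.1% of the summed loss, and the 10 with the largest gain for 28.8% of the summed gain. The sums and the 10 largest losses include a range on chromosome 10 with 2226 FPKM at D1 and 2015 at D2. It was listed at 0 at D3, which can be a failed estimate, as given at the end.

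Rises and falls differed in where the D2 column lay. The falls were partly present at D2. Their median went from 13.9 FPKM at D1 to 7.68 at D2 and 3.36 at D3, and at D2 the median fall had reached 0.43 of its D1 to D3 log2 change. The rises were mostly absent at D2. Their median was 4.18 FPKM at D1 and 3.99 at D2 but 14.5 at D3, and at D2 the median rise had reached -0.0019 of its change.

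Counted by locus, 605 of the 1380 falls (43.8%) but 93 of the 596 rises (15.6%) had reached at least 50% of their log2 change at D2. D2 lay on the far side of D1, away from D3, at 301 rises (50.5%) and at 208 falls (15.1%). By step, 437 of the falls were also called lower at D2 than at D1 and 573 were called lower at D3 than at D2. Called higher at these steps were 12 and 10 of the falls. Of the rises, 59 were called higher and 48 lower at D2 than at D1. At D3 against D2, 427 of the rises were higher and 5 lower. Of the 15069 uncalled loci, 344 were lower and 81 higher at D2 than at D1. At D3 against D2, 225 of the uncalled were lower and 485 higher. Whether a low D2 column shaped both courses was not tested. Over all loci, 4.92% were lower and 1.19% higher at D2 than at D1, and 5.12% were lower and 5.51% higher at D3 than at D2. These steps share the D1 and D3 columns with the rule that picked the loci, so they describe the course and are no second measurement of it.

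The D2 column had the smallest sum, 666300 FPKM against 706188 at D1 and 693073 at D3. With the 3 columns rescaled to the same sum, 40.2% of the falls and 17.2% of the rises had reached at least 50% of their change at D2. The median D2 minus D1 difference over all measured loci was -0.0066 on the log2 scale.

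**Figure D2:**
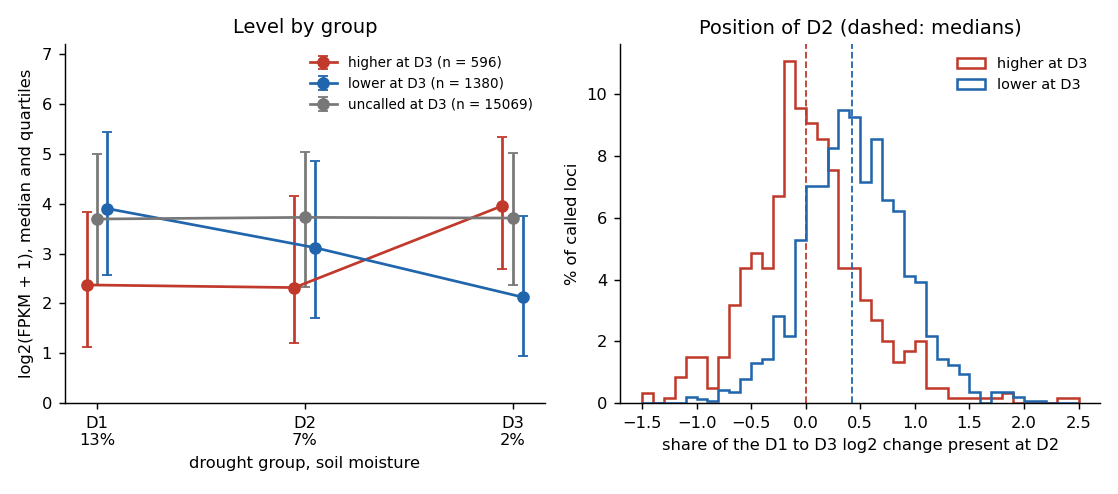
Left, median and quartiles of log2(FPKM + 1) over the loci higher, lower or uncalled at D3 against D1, in each drought group. Right, share of the D1 to D3 log2 change that was present at D2, as a percentage of the called loci, with values beyond the axis placed in its end bins. The falls centre at 0.43 and the rises at about 0.

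The largest rises were of both courses. Sobic.006G061900, on chromosome 6 at 41719162 to 41721830, stood at 1.27, 28.5 and 107.8 FPKM from D1 to D3, a log2 difference of 5.59. In the field its highest level was at soft dough, where it had 100.3 FPKM, after 0.930, 6.72 and 0.367 FPKM at the 3 stages before. Sobic.003G244600, on chromosome 3 at 58393939 to 58395378, stood at 12.5, 128 and 557 FPKM from D1 to D3. Both loci were thus well above D1 by D2 and highest at D3.

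On chromosome 5, a pair of adjacent ranges rose by similar courses. The first, from 70154297 to 70179460, is 1 locus with 5 IDs and went from 1.74 FPKM through 42.2 to 301, which is the largest rise of all measured loci (log2 difference 6.79). The second, from 70180263 to 70181103, had 3.12, 31.6 and 168 FPKM. It was listed at 0 at booting in the field and had 32.8 FPKM at soft dough. Other strong rises were absent at D2. The locus on chromosome 9 at 58073717 to 58079719 stayed level from D1 (26.9 FPKM) to D2 (26.3) and reached 347 FPKM at D3, and the one on chromosome 3 at 65410779 to 65417430 had 243, 122 and 1091 FPKM. Of the 12 largest rises chosen by the same rule, 6 had D2 between D1 and D3, 5 had D2 below D1, and 1 had D2 above D3.

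The largest falls, too, were of more than 1 course. Sobic.009G119200, on chromosome 9 at 46821033 to 46826334, went from 870 FPKM to 549.9 and then 6.93, a log2 difference of -6.78. Sobic.009G043900, on chromosome 9 at 4198823 to 4200683, went from 64.8 FPKM to 0.0504 and then 0.174, a log2 difference of -5.81. The first therefore lost most of its level between D2 and D3 and the second before D2. In the field both were low at booting, at 0.162 and 3.82 FPKM. Of the 12 largest falls, 10 had D2 between D1 and D3 and 2 had D2 below D3, while none had D2 above D1.

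Some abundant loci were among the falls. The locus from 70717672 to 70722503 on chromosome 3, with 2 IDs, was the second most abundant at D1 and declined from 8804 FPKM to 5314 and 4279. The one from 515146 to 521284 on chromosome 3 had 3851, 3165 and 1404 FPKM. Of the 10 most abundant loci at D1, these 2 were lower and 0 were higher at D3. That list was ranked by D1, a column that also sets the call, so its counts say little about abundant loci. Over all loci at 100 FPKM or more, 10.6% were lower and 4.73% higher. Of the 10 most abundant at D1, 7 were also among the 10 most abundant at D3. The most abundant locus, on chromosome 2 from 69501545 to 69504021, had 10118, 8335 and 11629 FPKM and was not called. Among the 10 most abundant at D3, 1 was lower, the chromosome 3 locus with 2 IDs, and 1 was higher. The higher locus lay on chromosome 1 from 8265619 to 8274286, with 1087, 491 and 2454 FPKM.

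Short loci were lower at D3 far more often than long ones. Of 543 measured loci whose printed range was at most 1000 bp, 25.4% were lower and 7.37% higher. From 1001 to 2000 bp, 21.6% were lower and 5.45% higher. The medians of these classes were -0.30 and -0.23 on the log2 scale, against 0.03 from 4001 to 8000 bp and 0.05 above. From 4001 to 8000 bp the shares were 4.9% and 2.96%, and above 8000 bp they were 4.54% and 2.54%. Falls thus outnumbered rises 3.96 to 1 between 1001 and 2000 bp and 1.78 to 1 above 8000 bp. The median range was 2736 bp for the lower loci, 3798 bp for the higher and 4656 bp for those uncalled, and 502 of the 1380 lower loci (36.4%) had a range of up to 2000 bp, against 13.1% of all measured loci.

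The relation with length was also present among abundant loci. At 100 FPKM or more, 20 of 62 loci of at most 1000 bp were lower (32.3%), and 19 of 213 loci above 8000 bp were (8.92%). At 20 to 100 FPKM the shares were 32% and 5.09%. It was present at D2 against D1, where 18.9% of loci of at most 1000 bp were lower and 3.97% higher. It took another form at D3 against D2, where 12% of these loci were lower and 13.2% higher. In the field, 25.7% of loci of at most 1000 bp were higher and 9.1% lower at booting than at floral initiation, where 5.6% and 4.14% of all loci were. At milky stage against booting 18.3% of them were higher and 19.7% lower (10% and 14% of all loci), and at soft dough against milky stage 16.3% and 18.7% (7.55% and 4.27% of all loci). Short loci were thus called more often than all loci in both directions at each field step. Range length thus moved with the calls in both drought and field columns, and its part in the counts above was not tested. The printed range can be longer than the transcript that FPKM uses.

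**Figure D3:**
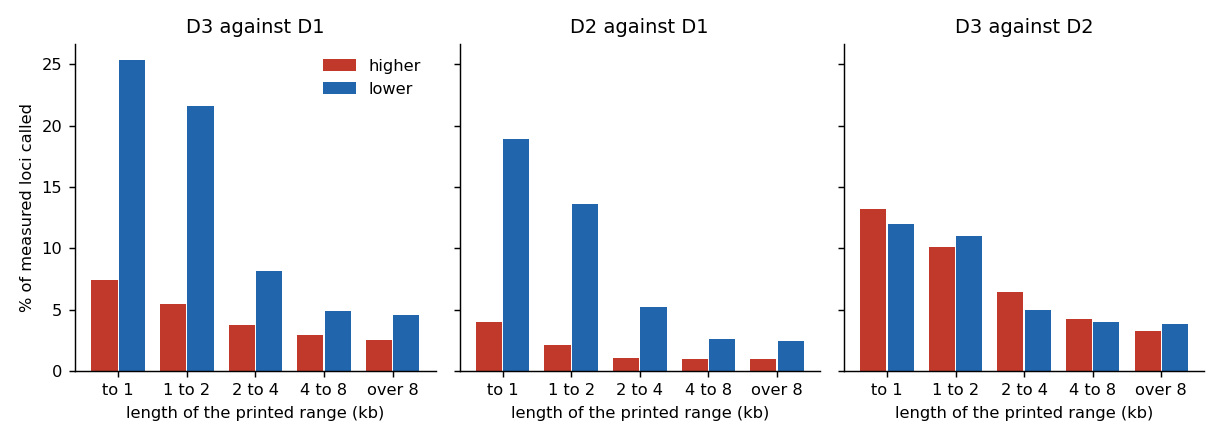
Percentage of measured loci called higher or lower, by the length of the printed range in kb, for D3 against D1, D2 against D1 and D3 against D2. At D3 against D1 the lower share falls from 25.4% for ranges of at most 1000 bp to 4.54% above 8000 bp, while at D3 against D2 higher and lower shares are similar in each class.

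Loci that changed under drought also varied more over development in the field. This readout does not enter the rule, since no field column was used to call them. Of the measured loci, 12581 had the same IDs and range in the development table, and 5447 of these (43.3%) ranged over at least 1 log2 unit across the 4 field stages. Among matched loci the share was 73.4% for those lower at D3 (752 of 1024), 62.2% for those higher (288 of 463) and 39.7% for those uncalled. At 20 to 100 FPKM the shares stood in the same order, at 82.8%, 62.9% and 34.8%. At 1 to 5 FPKM the lower and higher loci had nearly equal shares, 55.9% and 56.2%, against 43.4% of the uncalled. These shares were not split by range length. Among all measured loci, ranges of up to 2000 bp made up 36.4% of the lower, 22.1% of the higher and 10.6% of the uncalled. Loci of at most 1000 bp were also called more often at each field step, and the part of range length here was not tested.

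For the lower loci the medians of log2(FPKM + 1) were 2.73, 3.18, 2.92 and 3.09 from floral initiation to soft dough, beside 3.86 at D1 and 1.99 at D3. For the higher loci they were 2.90, 3.01, 2.51 and 2.75, beside 2.29 at D1 and 3.98 at D3. These loci were picked for unlike D1 and D3 values, so a level in between is no finding. Over all matched loci the field medians ran from 3.64 to 3.69, below both D1 (3.79) and D3 (3.74). The tables were normalized separately, and field and pot plants also differ in growth and watering, which cannot be told apart here.

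The stage of highest field level differed with the course. Among falls that had reached at least 50% of their change at D2 and that varied in the field, 42.4% were highest at soft dough and 12.9% at floral initiation. Among the other falls these shares were 22.3% and 23.3%. Rises that had reached at least 50% at D2 were highest at soft dough in 41.7% of cases, but only 48 of them varied in the field. The later rises were most often highest at booting, in 40.8% of cases. Over all varying loci, 26.5% were highest at soft dough and 26.1% at booting. Ranges of up to 2000 bp made up 42.1% of all falls with at least 50% reached at D2 and 31.9% of the others. For rises these shares were 37.6% and 19.3%, and the part of range length in the stage of highest level was not tested.

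**Figure D4:**
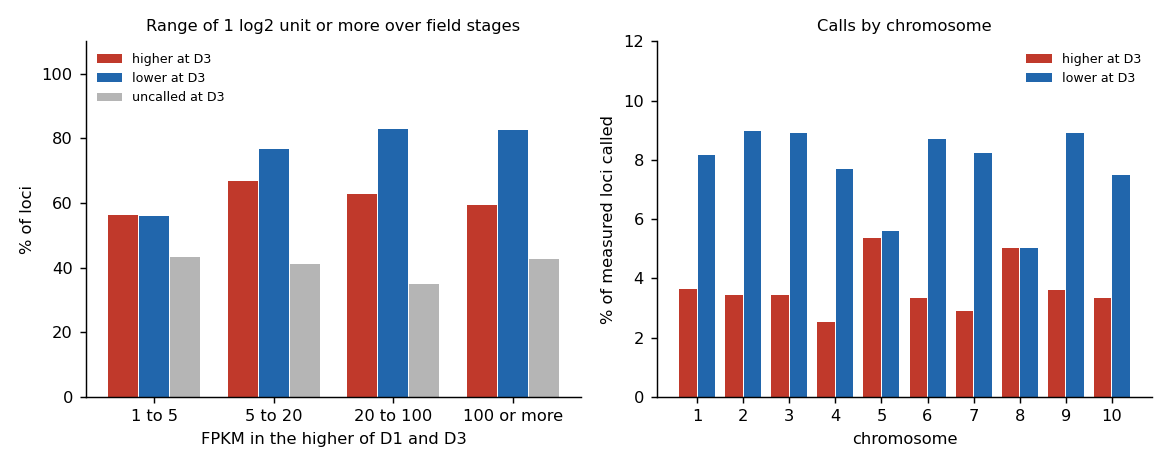
Left, percentage of loci that ranged over at least 1 log2 unit across the 4 field stages, by level and by call at D3 against D1. Right, percentage of measured loci called higher or lower on each chromosome. From 5 FPKM upward the lower loci vary most often in the field, and chromosomes 5 and 8 have about equal shares of higher and lower loci.

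Chromosomes 5 and 8 lacked the excess of falls on the log2(FPKM + 1) scale. On chromosome 5, 42 loci were higher and 44 lower of 785 measured, and on chromosome 8, 44 were higher and 44 lower of 875. Together 5.3% of their loci were lower and 5.18% higher, against 8.4% and 3.32% on the other 8 chromosomes, where lower loci outnumbered higher ones by 2.23 to 3.02 to 1. The median range on chromosomes 5 and 8 was 4761 bp and on the others 4452 bp.

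Loci with the same call also sat next to each other, falls and rises alike. With 1 locus per printed range, 190 of 1315 lower loci (14.4%) were followed along the chromosome by another lower locus, where 8.14% of all 16157 ranges were lower. An opposite call followed 3.35% of them. For rises, 43 of 572 (7.52%) were followed by another rise, where 3.54% of all ranges were higher. Runs of at least 4 neighbouring measured loci with the same call numbered 7, and all 7 were falls.

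The runs differed in their course. On chromosome 9, from 3571339 to 3606537, 4 loci were down by D2, with a median of 42.5 FPKM at D1 and of 8.54 and 8.63 FPKM in the drier groups. On chromosome 2, the 4 loci from 72574771 to 72589152 went from a median of 4.70 FPKM to 1.04 and 0.573, and the 4 from 65291663 to 65318342 from 26.5 to 11.4 and 8.57. On chromosome 4, 4 loci from 54620738 to 54693919 had medians of 3.25, 1.41 and 0.480 FPKM. These 4 runs had at least 50% of the difference between their D1 and D3 medians behind them at D2. Single loci could differ, and the first of the chromosome 4 run went from 3.07 FPKM to 2.12 and then 0.680. The third of that run had 1.03 FPKM at D1, just above the filter, and was listed at 0 at D2 and D3. A listed 0 can be a failed estimate, and without loci listed at 0 the runs of neighbouring falls numbered 6.

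The 3 runs on chromosome 6 fell later. From 57422956 to 57445069, 5 loci had a median of 109.7 FPKM at D1, rose to 174.6 at D2 and ended at 24.6, and all 5 were higher at D2 than at D1. The last of them had 858 and 882 FPKM at D1 and D2 but 158 at D3. From 54712016 to 54759119, the 6 loci had medians of 101, 123 and 28.1 FPKM. From 50867285 to 50905501, 4 loci had medians of 49.8, 38.6 and 12.1 FPKM. The first 2 of them went apart before D3, from 141 to 62.6 FPKM and from 87.3 to 121. The last went from 2.47 FPKM to 0.896 and then 0.0770, and in FPKM units it lost more before D2 than after. Whether neighbours in a run are separate transcripts was not tested, and overlapping transcripts on opposite strands may share fragments.

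**Figure D5:**
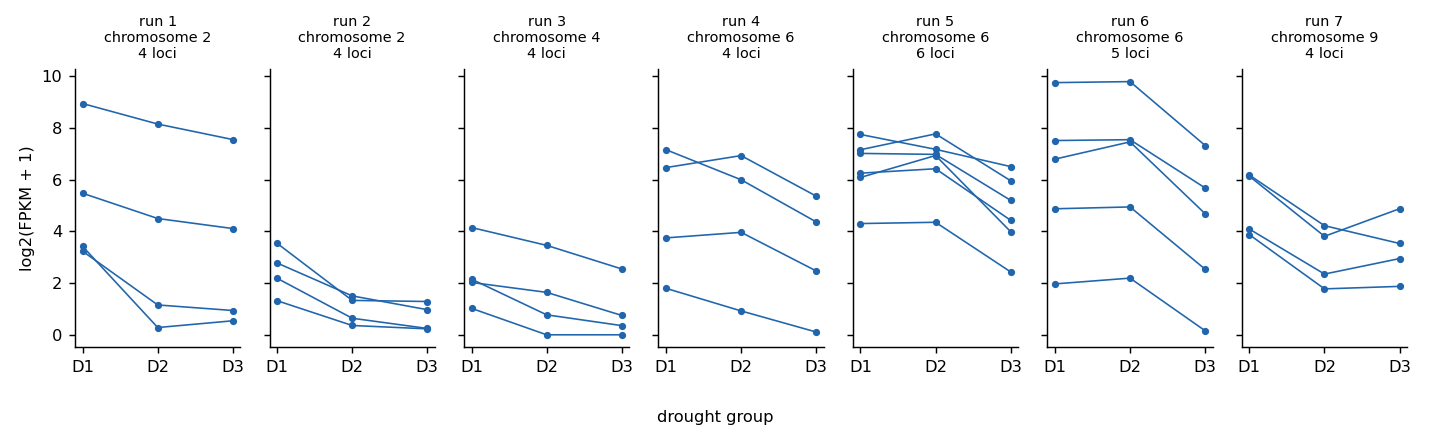
Level of each locus of the 7 runs of neighbouring falls as log2(FPKM + 1) at D1, D2 and D3, with runs numbered by chromosome and position. Lines join the values of 1 locus. The medians of the 4 runs on chromosomes 2, 4 and 9 drop mainly between D1 and D2, and those of the 3 on chromosome 6 between D2 and D3. Single loci on chromosomes 4 and 6 depart from the course of their run's median.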

How the data were processed

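The values are deposited FPKM with 1 column for each group, per the file headers; the labels assign that column to both of its libraries. Total RNA went into a strand-keeping library kit, per the labels' protocols. The tools listed in the submitters' processing notes are HISAT2 2.0.5, Bowtie2 2.2.9, cutadapt 1.8.1 and Cuffdiff, with no order. Genome build and strand setting of the counting: not given in the sources used here. Positions are as printed in the file.

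Depth is unknown. Over loci with a printed range of at most 3000 bp, 1 step was taken as the 1st percentile of non-zero FPKM times kb. That gave 56.4 steps at D1, 84.7 at D2 and 60.1 at D3 for a locus of 1 kb at 1 FPKM. Whether 1 step is 1 fragment was not tested.

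Differences were computed on log2(FPKM + 1) with Python 3.11.15, pandas 2.3.3 and numpy 2.4.6, and the procedure was checked on simulated data. The simulation held planted changes and counting noise only. It therefore checks the computation and says nothing about differences between plants or libraries. No test across loci was run, since a group has 1 column. The 44 gene lists written for the work had no members found and no promoter sequences were used, so neither was run. Members and analyses were chosen with earlier results of these data known, and the analyses of course, range length, chromosomes, field stages and runs after seeing the values. The named loci follow the rule stated in the text, and positions given without an ID were chosen after their values were seen.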

Additional observations from a re-analysis of the deposited data

How the results depend on the processing

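The counts depended mainly on the pseudocount. With a pseudocount of 5, 255 loci were higher and 684 lower at D3; 33 rises and 277 falls had reached at least 50% of their change at D2, and 59 rises and 256 falls had a range of up to 2000 bp. With a pseudocount of 0.1, 907 loci were higher, of which 183 had reached 50% at D2 and 208 had a range of up to 2000 bp. The runs of neighbouring falls numbered 12 with a pseudocount of 0.1 and 3 with 5. They numbered 4 without a filter, where more loci enter the order. With loci of 1 ID only they also numbered 4, since a locus with 2 IDs drops out of 3 of the 7 runs. Chromosomes 5 and 8 had 43 rises and 44 falls with a pseudocount of 5. With 0.1 they had 139 falls, while their 118 rises stayed within 1.5 times of the main count. The other 74 of 90 comparisons of 9 counts under 10 settings stayed within 1.5 times. Falls made up 67.2% to 72.8% of the calls, and the share of loci lower was greater up to 2000 bp than above under all 10 settings. The log2 differences of the 4 named loci kept their sign in all 40 comparisons; they were chosen for their size, so this says little about them. No paired analysis was possible because the 2 libraries of a group share 1 deposited column, and for the same reason no library could be left out. Without replicates, differences between plants and between libraries cannot be told apart from drought.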

Other observations

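Loci with several IDs were 26 of the 596 rises and 75 of the 1380 falls, among 1095 such loci measured. The largest apparent fall of all was one of them. On chromosome 10, a range of 105580 bp from 52122843 to 52228422 with 4 IDs had 2226 FPKM at D1 and 2015 at D2, and was listed at 0 at D3. In the field table the same range had 2089 FPKM at floral initiation and was listed at 0 at booting, milky stage and soft dough. Since a listed 0 can be a failed estimate, no fold is given for it. On chromosome 9, the range from 54777441 to 54789057 with 3 IDs had 53.3, 50.5 and 1.06 FPKM from D1 to D3. On chromosome 2, the range from 75398142 to 75410706 with 2 IDs had 10.3, 7.16 and 142 FPKM. Which of the IDs in each range carried the change was not tested. In all, 19 falls and 6 rises were listed at 0 in 1 of the columns.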
